A study of Mus musculus with 20 samples.

Results

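The heterogeneous nuclear ribonucleoprotein (hnRNP) genes encode abundant nuclear proteins that coat nascent RNA. Most of them shape splice-site choice. Several are known to control their own messages through alternative or unproductive splicing, so the introns of these genes are both products and targets of the machinery they encode. In red-cell precursors they are widely expressed regulators rather than lineage markers. Introns of 10 genes were taken by gene name: Hnrnpa1, Hnrnpa2b1, Hnrnpc, Hnrnpd, Hnrnpf, Hnrnph1, Hnrnpk, Hnrnpl, Hnrnpm and Hnrnpu. Of the 109 introns annotated in the tabulated transcripts of these genes, 102 were in the splicing table, out of 68794 introns in all. The 45 of them that were also in the table of splicing intermediates were among 6537 introns in that table. All 102 fell on annotated introns of GENCODE release M21 on the mouse build GRCm38.

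The study sequenced long reads of nascent RNA from murine erythroleukemia (MEL) cells, a transformed red-cell precursor line that makes globin after treatment with dimethyl sulfoxide (DMSO). Uninduced wild-type cells received no treatment, and induced wild-type cells received 2% DMSO for 5 days. Each condition had 4 long-read samples, made of 2 biological replicates on a pair of sequencing instruments, from chromatin depleted of ribosomal and polyadenylated RNA. The tables give 1 line per intron and condition with all samples combined, called a pool below, so no spread between replicates can be given for any value. A test between the pools compares 2 collections of reads, not the conditions, and the intervals are 95% Wilson intervals that cover counting error only. The libraries were amplified by PCR, and whether duplicate molecules were removed is not given in the sources used here, so reads may not be independent molecules. A single read can also count for several introns of a gene, so intervals on sums over introns may be too narrow even for counting error.

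For each intron the co-transcriptional splicing efficiency (coSE) is the number of spliced reads divided by spliced plus unspliced reads. How reads spliced across an intron at other sites were counted was not examined here. The fraction of intermediates (NIC) is the number of reads that end at the last base of the upstream exon, a product of the first splicing step, divided by those reads plus spliced reads. A read across 1 intron is called an observation. The 10 genes gave 1931 observations in uninduced and 1651 in induced cells, out of 416379 and 279371 over all introns. An intron was described by its coSE from 10 reads upward, which 51 hnRNP introns reached in the uninduced pool, 42 in the induced pool and 31 in both. All 12 red-cell markers examined had introns in the table, with 869 summed observations in uninduced and 8840 in induced cells. The 12 markers of other blood and stromal cells had none. The red-cell markers were uneven, from Tal1 (0 and 2 observations) to Tfrc (213 and 2001). Klf1 (9 and 11) and Gata1 (91 and 128) differed little.

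The median splicing efficiency of the hnRNP introns was lower than that of introns at large in both pools, and Hnrnph1 held many of the least spliced introns. Among introns with 10 or more reads, coSE was below 0.5 in 7 of 51 hnRNP introns (13.7%) in uninduced cells, where 7.26% of all introns were. In induced cells it was below 0.5 in 15 of 42 (35.7%), against 6.60% of all introns. These were 17 of the 62 introns deep enough in either pool (27.4%, against 8.42% of all introns), and 5 of the 31 deep enough in both were below 0.5 in both (16.1%, against 3.18%). The 5 were introns 6, 8, 11 and 12 of Hnrnph1 and intron 14 of Hnrnpk.

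The counts in uninduced cells and in both pools rested on Hnrnph1. Without it, 3 of 45 introns (6.67%) were below 0.5 in uninduced cells and 1 of 25 (4.00%) in both pools, near the shares over all introns. In induced cells 8 of 32 (25.0%) were, and 10 of 52 (19.2%) in either pool. The median coSE was 0.793 in uninduced and 0.581 in induced cells, and the corresponding medians over all introns were 0.933 and 0.947. Without Hnrnph1 the hnRNP medians were 0.820 (45 introns) and 0.843 (32 introns). Over the 31 introns deep enough in both pools the medians were 0.786 and 0.840, beside 0.942 and 0.952 over all 4403 such introns, and without Hnrnph1 they were 0.818 and 0.846. Complete splicing of every read was found in 2 of 51 introns (3.92%) and 3 of 42 (7.14%), where all introns gave 37.0% and 43.1%. By annotation, 4 of the 17 induced hnRNP introns in every transcript that spans them were below 0.5, and 11 of the other 25. Over all introns the counts were 169 of 4216 and 249 of 2117. In uninduced cells they were 3 of 28 and 4 of 23, beside 290 of 6650 and 435 of 3332.

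**Figure D1:**
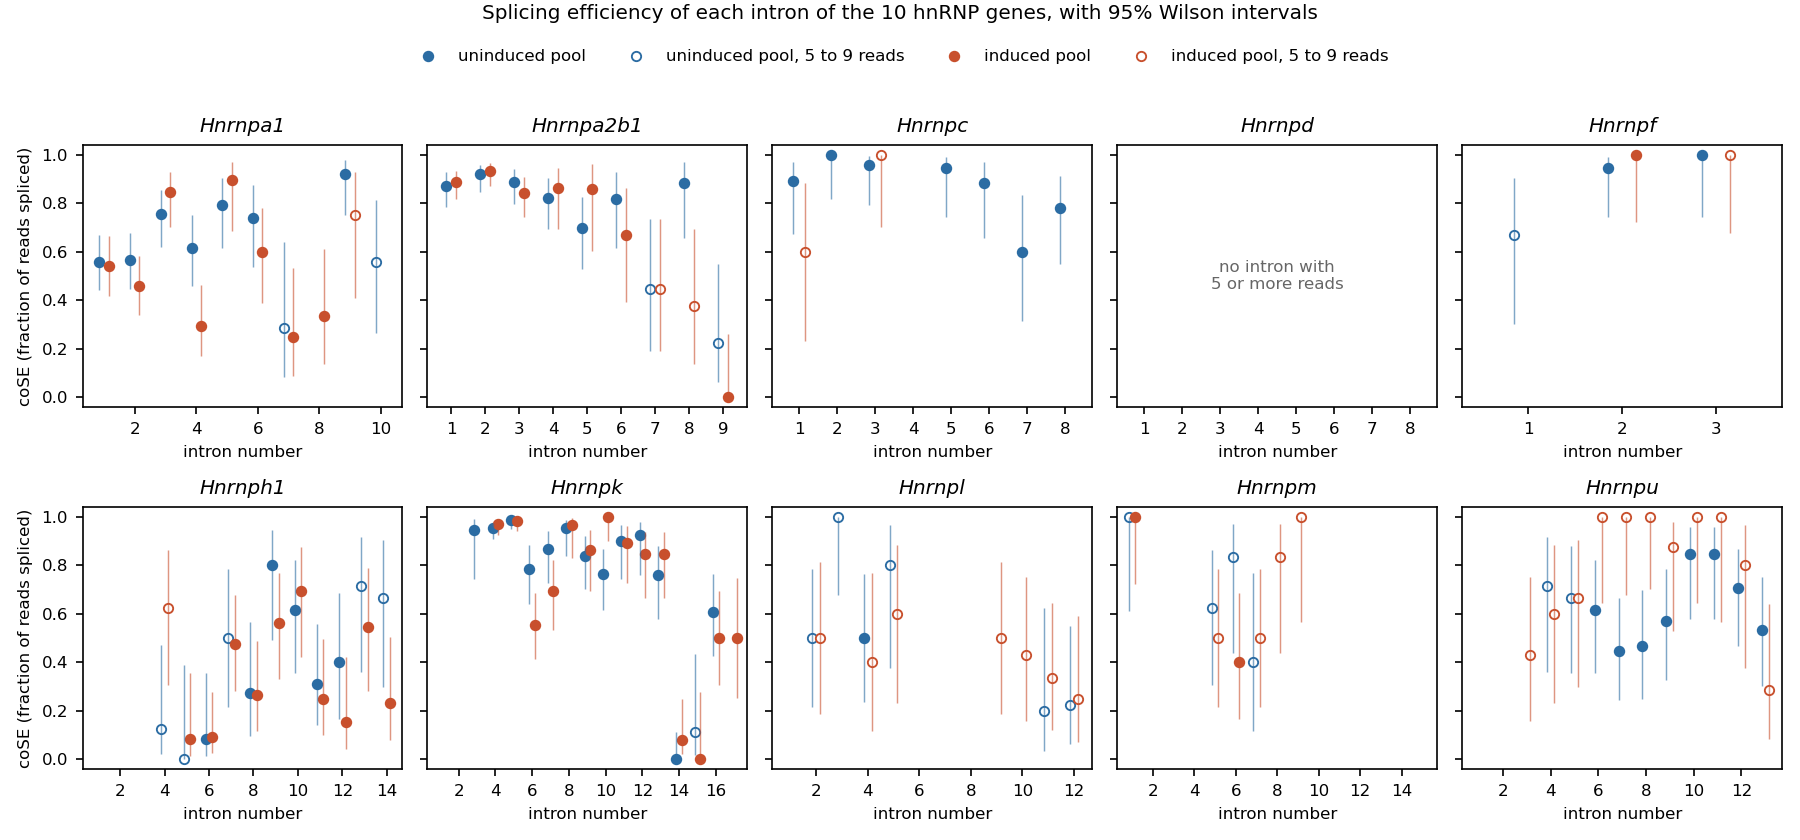
coSE of each intron (vertical axis, spliced reads divided by all reads of the intron) in order along each gene (horizontal axis, intron number), with uninduced and induced pools in separate colours. Bars are 95% Wilson intervals, filled points have 10 or more reads, open points have 5 to 9, and the Hnrnpd panel is empty because no intron reached 5. Several introns of Hnrnph1 lie low in both pools, while its introns 9, 10 and 13 lie above 0.5 in both. The first introns of Hnrnpa2b1 and most introns of Hnrnpk lie high.

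Splicing efficiency ranked the hnRNP introns in a similar order in the 2 pools. Across the 31 introns the Spearman correlation was 0.836 and the Pearson correlation 0.898, as a description of introns that share genes, reads and libraries. Over all 4403 introns the values were 0.565 and 0.734. Those introns lay closer to full splicing, and 990 of them had equal coSE in both pools, so the correlations rest on unlike ranges. The median absolute difference between pools was 0.0769 for the hnRNP introns and 0.0556 for all introns. No hnRNP intron of the 31 changed between the pools by Fisher's exact test (two-sided, Benjamini-Hochberg adjustment over all 4403 introns), where 1.61% of all introns did, 1.25% lower and 0.363% higher in induced cells. At an unadjusted p under 0.05 there were 3 of 31 (9.68%), beside 7.97% of all introns, and a chi-square test with the same adjustment called 0 of 31, where it called 99 of 4403 introns (2.25%). Of the 31 introns, 15 had a higher and 16 a lower coSE in induced cells, with a median difference of -0.00301, and over all introns 42.7% were higher and 34.8% lower. Their depth and spliced totals would have allowed a call in 22 of the 31.

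**Figure D2:**
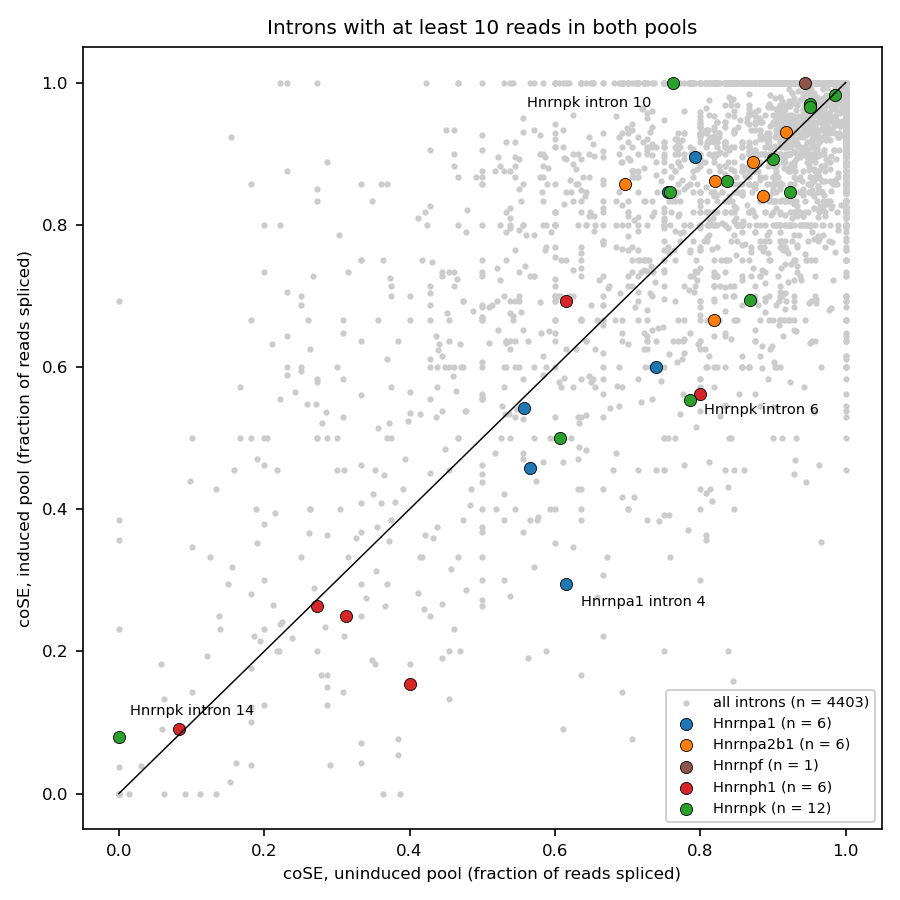
coSE in uninduced cells (horizontal axis) against coSE in induced cells (vertical axis) for introns with 10 or more reads in both pools. Grey points are all 4403 introns and coloured points the 31 hnRNP introns, several of which lie low in both pools where few other introns are.

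Reads per gene, summed over the introns listed in each pool, were compared with the total of that pool. Hnrnph1 intron 3, Hnrnpm intron 13 and Hnrnpd intron 4 had reads in induced cells only. Hnrnpm introns 3, 4 and 14 and Hnrnpd introns 5 and 6 had reads in uninduced cells only. Hnrnph1 had 257 observations per 1000000 in uninduced and 598 in induced cells, a ratio of 2.33. Hnrnpm had a ratio of 1.99. Hnrnpc, whose protein binds uridine tracts in nascent RNA, went from 125 observations to 30, or 300.2 to 107 per 1000000, a ratio of 0.358. Among 2402 genes with at least 20 observations the median ratio was 1.09 with quartiles of 0.703 and 1.72, so these 3 genes lay outside the quartiles. Hnrnpa1, Hnrnpa2b1, Hnrnpk, Hnrnpl and Hnrnpu had ratios between 0.840 and 1.46, inside the quartiles. These ratios have no replicate check, and fewer cells of a type and less RNA per cell cannot be told apart.

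Hnrnpk encodes a KH-domain protein that binds cytosine-rich RNA, and it was the most deeply covered of the 10 genes (chromosome 13, minus strand, ENSMUSG00000021546.18). Its introns 4 and 5 were almost always spliced. Intron 4 had 157 spliced of 165 reads in uninduced cells (0.952) and 129 of 133 in induced cells (0.970). Intron 5 had 140 of 142 (0.986) and 115 of 117 (0.983). Both pools then lost most of their reads at the next intron, with 42 and 47 reads on intron 6.

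Intron 6 of Hnrnpk (chr13:58397797-58399155, 1359 nt, between coding exons) held more splicing intermediates than any other intron of the 10 genes. In uninduced cells 42 of 65 reads were intermediates (NIC 0.646, interval 0.525 to 0.751). In induced cells 37 of 63 were (NIC 0.587, interval 0.464 to 0.700). The pools did not differ by more than counting error (Fisher's exact test, two-sided, unadjusted p = 0.586). Over all introns listed, 1 in uninduced and 6 in induced cells had more intermediates, and 31 and 18 had a NIC at least as high. This intron alone made up 55.3% of the hnRNP intermediates in uninduced and 43.0% in induced cells.

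The splice sites of Hnrnpk introns 5, 6 and 7 are shown because the intermediates piled up at the middle of the 3. They are printed 5′ to 3′ on the RNA strand as deposited. The 5′ sequences hold 3 exon and 6 intron bases, the 3′ sequences 20 intron and 3 exon bases, and capitals mark the first and last intron dinucleotides.
Hnrnpk intron 5, 5′ site: aagGTataa
Hnrnpk intron 6, 5′ site: gacGTaagt
Hnrnpk intron 7, 5′ site: gcgGTatgt
Hnrnpk intron 5, 3′ site: tttttttttgtctattccAGaat
Hnrnpk intron 6, 3′ site: aacgccaatgaccaatgcAGtac
Hnrnpk intron 7, 3′ site: tggtatttgatatttggcAGcat

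The 5′ site of intron 6 had a deposited score of 10.93, above the median of 8.78 over the 6537 scored introns. Its 3′ site had a score of 0.09, the lowest of the 45 scored hnRNP introns, and 0.627% of all scored introns had a lower one. Of its last 20 intron bases 8 were pyrimidines, against a median of 14, and 0.704% of scored introns had as few. Intron 5 had a 3′ score of 11.99 with 16 pyrimidines, and intron 7 a score of 3.50 with 10. The 44-nt exon between introns 6 and 7 is skipped in 3 annotated transcripts, which use the same outer sites across a 2256-nt intron (chr13:58396900-58399155).

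In coSE, intron 6 had 33 spliced of 42 reads (0.786) in uninduced cells and 26 of 47 (0.553) in induced cells. That difference had an unadjusted p of 0.0256 by Fisher's exact test and an adjusted p of 0.455. Intron 7 had 33 of 38 (0.868) and 25 of 36 (0.694), with 3 intermediates of 26 reads (NIC 0.115) and 5 of 30 (NIC 0.167). Intron 5 upstream had NIC values of 0.0362 and 0.0550.

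**Figure D3:**
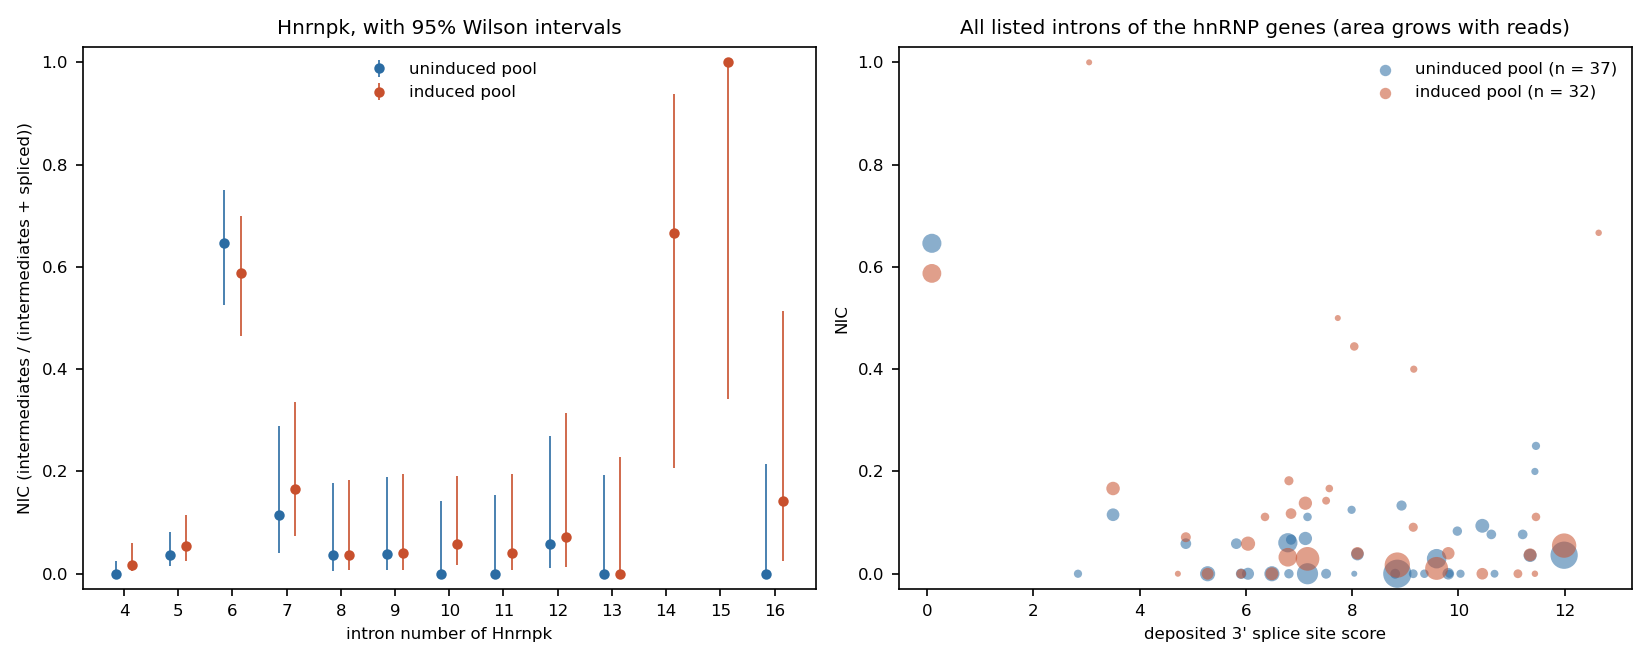
NIC (vertical axes, intermediates divided by intermediates plus spliced reads) along the introns of Hnrnpk with 95% Wilson intervals (left) and against the deposited 3′ splice site score for the 37 uninduced and 32 induced hnRNP introns listed, with point area growing with reads (right). Hnrnpk intron 6 stands at the lowest score and above 0.5 in both pools, and the other points above 0.3 have few reads.

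Further along Hnrnpk, intron 10 was the hnRNP intron with the smallest p for a difference in coSE. It had 32 spliced of 42 reads in uninduced cells (0.762, interval 0.615 to 0.865) and 35 of 35 in induced cells (1, interval 0.901 to 1). The pools' intervals did not overlap, and the unadjusted p was 0.00151 by Fisher's exact test, with an adjusted p of 0.0820 over all introns tested. The adjusted p was 0.0340 with a minimum of 20 reads and 0.198 with a minimum of 5, so the call turned on the coverage minimum. With the minimum of 20 reads it was 1 of 21 hnRNP introns called (4.76%), near the 68 of 1330 called over all introns (5.11%).

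Introns 14 and 15 of Hnrnpk flank a 16-nt exon, and nearly all reads counted at them were unspliced. Intron 14 (chr13:58393869-58394075, 207 nt) had 0 spliced of 30 reads in uninduced cells, with a Wilson interval of 0 to 0.114 (a limit of 3 counts, used for values of 0, is 10.0%), and 2 of 25 (0.0800) in induced cells. Intron 15 (chr13:58393775-58393852, 78 nt) had 1 of 9 and 0 of 10. In the induced intermediate table they had 2 intermediates of 3 reads and 2 of 2. Their neighbours in the same gene were spliced more often, with 22 of 29 and 22 of 26 reads for intron 13 and 17 of 28 and 11 of 22 for intron 16. Depth dipped at intron 15, with 9 and 10 reads between 30 and 25 at intron 14 and 28 and 22 at intron 16. Its fractions describe only the reads counted there, and the cause of the dip was not tested.

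Both lie inside an exon of some annotated transcripts, 3 for intron 14 and 4 for intron 15. Intron 14 is spliced in 9 of 12 annotated transcripts that span it, and intron 15 in 11 of 15. The sites are shown because each of these introns pairs a low-scoring end with a high-scoring end.
Hnrnpk intron 14, 5′ site: cagGTtgag
Hnrnpk intron 14, 3′ site: tttttttcttttgtttttAGggt
Hnrnpk intron 15, 5′ site: atgGTaagt
Hnrnpk intron 15, 3′ site: ctgctcattatttaaatcAGact
Intron 14 had a 5′ score of 1.68, below all but 1.48% of scored introns, and a 3′ score of 12.64, the highest of the 45. Intron 15 had a 5′ score of 11.01 and a 3′ score of 3.05.

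Hnrnph1, whose protein binds runs of guanines through quasi-RNA-recognition motifs, had the lowest share of spliced observations of the 9 genes other than Hnrnpd (chromosome 11, plus strand, ENSMUSG00000007850.16). Over all of its introns 43 of 107 observations were spliced in uninduced cells (0.402, interval 0.314 to 0.497). In induced cells 58 of 167 were (0.347, interval 0.279 to 0.422). Its median coSE over introns with 10 or more reads was 0.356 and 0.257, and its highest was 0.800, in intron 9 of uninduced cells.

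The lowest of its introns with 10 reads in both pools was intron 6 (chr11:50381598-50382536, 939 nt), with 1 spliced of 12 reads in uninduced and 2 of 22 in induced cells. Intron 8 (chr11:50382872-50382927) is 56 nt long, and 1 of the 68794 introns is shorter. It had 3 of 11 spliced reads (0.273) and 5 of 19 (0.263), and 4 of its 9 intermediate-table reads in induced cells were intermediates (NIC 0.444).

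Intron 11 of Hnrnph1 had 5 spliced of 16 reads (0.3125) in uninduced cells and 4 of 16 (0.250) in induced cells. Intron 12 (chr11:50383921-50384643) had 4 of 10 and 2 of 13, a coSE of 0.400 and 0.154. The pools' intervals overlapped in both introns. Intron 11, like introns 4, 5 and 6, lies inside an exon of 2 annotated transcripts. Intron 12 had a 5′ score of -2.05, the lowest of the 45, and 0.505% of scored introns had a lower one. Annotated transcripts also join its 3′ site to 2 other 5′ sites, as introns of 753 and 874 nt. Its sites and those of the 56-nt intron are shown, as the lowest-scoring 5′ site and the shortest intron of the 10 genes.
Hnrnph1 intron 8, 5′ site: gagGTaagg
Hnrnph1 intron 8, 3′ site: ttacacatttgtccatctAGacc
Hnrnph1 intron 12, 5′ site: tgtGTaaat
Hnrnph1 intron 12, 3′ site: atgttctcttaacttaacAGcaa

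A further 3 introns of Hnrnph1 had 10 or more reads in induced cells only and were below 0.5 there. Intron 5 had 0 of 6 and 1 of 12 spliced reads, and intron 7 had 4 of 8 and 10 of 21. Intron 14, in the 3′ UTR, had 4 of 6 and 3 of 13. Introns 9 and 10 were higher, with 8 of 10 and 9 of 16 reads, and 8 of 13 and 9 of 13 reads. The differences of intron 12 (-0.246) and intron 9 (-0.2375) were the next largest falls after Hnrnpa1 intron 4 among hnRNP introns deep enough in both pools. Neither passed the test.

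**Figure D4:**
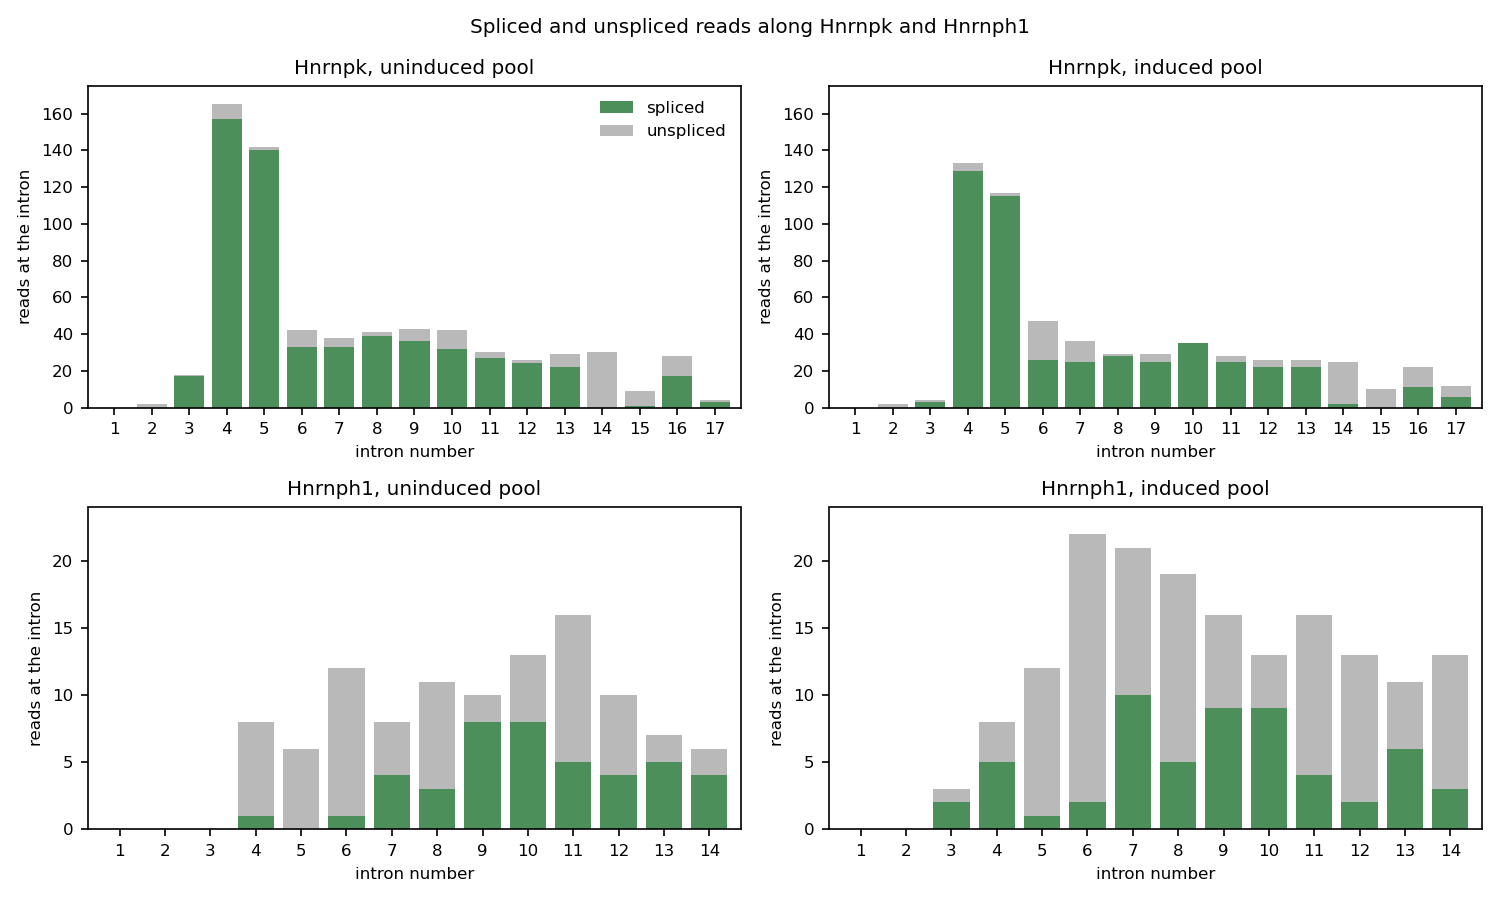
Spliced and unspliced reads, stacked (vertical axis, reads at the intron), in order along Hnrnpk and Hnrnph1 (horizontal axis, intron number), with a panel for each pool. Depth in Hnrnpk drops after intron 5 from 142 and 117 reads to 42 and 47, its intron 14 is nearly all unspliced, and most reads of Hnrnph1 are unspliced in both pools.

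Hnrnpa1 encodes an RNA-binding protein known as a splicing repressor that opposes SR proteins (chromosome 15, plus strand, ENSMUSG00000046434.16). Its first introns were only partly spliced. Intron 1 had 39 spliced of 70 reads in uninduced cells (0.557) and 32 of 59 in induced cells (0.542). Intron 2 had 39 of 69 (0.565) and 27 of 59 (0.458). Intron 3 was higher in both pools, with 37 of 49 (0.755) and 33 of 39 (0.846).

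Among hnRNP introns deep enough in both pools, the largest difference was in Hnrnpa1 intron 4 (chr15:103242114-103242205, 92 nt). It had 24 spliced of 39 reads in uninduced cells (0.615, interval 0.459 to 0.751) and 10 of 34 in induced cells (0.294, interval 0.168 to 0.462). The difference of -0.321 had an unadjusted p of 0.00940 by Fisher's exact test and an adjusted p of 0.273. The next intron, 5, went the other way, with 23 of 29 (0.793) and 17 of 19 (0.895).

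Introns 7 and 8 of Hnrnpa1 flank a 159-nt exon that some annotated transcripts leave out (chr15:103242719-103243624 is then 1 intron). They had 2 of 7 and 1 of 3 spliced reads in uninduced cells, and 3 of 12 and 4 of 12 in induced cells. Intron 9, downstream, had 23 of 25 (0.920) and 6 of 8. Over introns 6 to 9 depth was 23, 7, 3 and 25 reads in uninduced cells, a dip at introns 7 and 8. In induced cells it was 20, 12, 12 and 8. The fractions of introns 7 and 8 describe only the reads counted there, and the cause of the dip was not tested.

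Hnrnpa2b1, the close relative of Hnrnpa1, was spliced more completely at its start (chromosome 6, minus strand, ENSMUSG00000004980.16). Intron 1 had 75 spliced of 86 reads in uninduced cells (0.872) and 103 of 116 in induced cells (0.888). Intron 2, the deepest in uninduced cells and level with intron 1 in induced cells, had 90 of 98 (0.918) and 108 of 116 (0.931). The pools' intervals overlapped in both introns.

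Intron 5 of Hnrnpa2b1 had 23 of 33 (0.697) and 12 of 14 (0.857), the second largest rise among the 31 introns deep enough in both pools, with an adjusted p of 1. Its intron 4 had 2 intermediates of 29 reads in uninduced cells (NIC 0.0690) and 4 of 29 in induced cells (NIC 0.138). Near the end of the gene, intron 8 had 15 of 17 spliced reads (0.882) and 3 of 8 (0.375). With a minimum of 5 reads this gave an unadjusted p of 0.0169 by Fisher's exact test and an adjusted p of 0.721. The last intron lies in the 3′ UTR, and had 2 of 9 and 0 of 11 spliced reads.

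Hnrnpu encodes a large nuclear scaffold protein that binds both RNA and chromatin (chromosome 1, minus strand, ENSMUSG00000039630.10). By reads over all introns, 87 of 142 observations were spliced in uninduced cells (0.613, interval 0.531 to 0.689) and 64 of 80 in induced cells (0.800, interval 0.700 to 0.873). No single intron had more than 18 reads in uninduced or 9 in induced cells, so the same reads may be counted several times in these sums. Introns 7 and 8 had 8 of 18 (0.444) and 7 of 15 (0.467) spliced reads in uninduced cells, and 8 of 8 and 9 of 9 in induced cells. With a minimum of 5 reads each gave an unadjusted p of 0.00950 by Fisher's exact test and an adjusted p of 0.530. These introns are adjacent and may share reads, so their p-values are not separate results. No induced Hnrnpu intron reached 10 reads, so none entered the main test.

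Introns 10 and 11 of Hnrnpu begin with GC, as do 43 of the 6537 scored introns (0.658%). They are shown beside intron 7, which has the highest 5′ score of the 45, 11.08, shared with Hnrnpa1 intron 1.
Hnrnpu intron 7, 5′ site: gagGTaagt
Hnrnpu intron 10, 5′ site: aagGCaagg
Hnrnpu intron 11, 5′ site: gagGCaagt
The GC introns (chr1:178330847-178331092 and chr1:178330347-178330591) scored 2.76 and 3.32, and each had 11 of 13 spliced reads (0.846) in uninduced cells. In induced cells they had 7 of 7 and 5 of 5.

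Hnrnpc, Hnrnpf, Hnrnpl, Hnrnpm and Hnrnpd were covered more thinly. In Hnrnpc (chromosome 14), intron 3 was deepest, with 22 of 23 spliced reads in uninduced and 9 of 9 in induced cells. Intron 2 had 17 of 17 in uninduced cells, and the 3′-most introns were lower, with 6 of 10 for intron 7 and 14 of 18 for intron 8. In Hnrnpf (chromosome 6), a relative of Hnrnph1 that also binds guanine runs, all 3 introns lie in the 5′ UTR. Intron 2 had 17 of 18 and 10 of 10 spliced reads, and intron 3 had 11 of 11 and 8 of 8. Annotated genes on the opposite strand overlap introns of Hnrnpf (4933440N22Rik and Gm43863) and 1 intron of Hnrnpk (Rmi1).

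Hnrnpl, which binds CA repeats, had 31 of 55 observations spliced in uninduced (0.564) and 24 of 54 in induced cells (0.444), with 5 of 10 reads in its deepest intron, 4. Hnrnpm, which binds GU-rich RNA, had 31 of 48 (0.646) and 48 of 64 (0.750). Its intron 1 had 6 of 6 and 10 of 10 spliced reads, and intron 6 had 5 of 6 and 4 of 10 (0.400). Hnrnpd, which binds AU-rich elements, had 4 observations in uninduced and 3 in induced cells, too few to describe its splicing.

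Over the 10 genes, intermediates made up a larger share of reads than over all introns listed. They were 76 of 1069 reads (7.11%, interval 5.72 to 8.81) in uninduced cells and 86 of 924 (9.31%, interval 7.60 to 11.4) in induced cells, and 2.71% and 4.35% over all introns. Without Hnrnpk intron 6 the shares were 3.39% and 5.69%. At least 1 intermediate was found in 20 of 37 introns (54.1%) in uninduced cells, where 36.2% of all introns had one, and in 25 of 32 (78.1%) in induced cells, where 37.8% did. No hnRNP intron of the 24 listed in both pools changed in NIC by Fisher's exact test with adjustment over 2039 introns, where 0.0981% of all introns did. None had an unadjusted p under 0.05, as 1.67% of all introns had, and the smallest was 0.196. A NIC of 0.1 or more with at least 3 intermediates was found in 2 of 37 introns in uninduced cells (5.41%, against 5.30% of all introns). In induced cells it was found in 4 of 32 (12.5%, against 6.12%), namely Hnrnpk introns 6 and 7, Hnrnpa2b1 intron 4 and Hnrnph1 intron 8.

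The hnRNP introns are shorter than most, with a median of 490.5 nt and a range of 56 to 16963, beside a median of 1226 nt over all introns. GC content and splice-site scores are deposited for 45 of them and for 6537 introns in all. The median GC content was 34.8%, against 43.9%. Median splice-site scores were 8.35 at the 5′ end and 8.04 at the 3′ end, against 8.78 and 8.70. In uninduced cells the Spearman correlation of hnRNP coSE with length was 0.411 over 51 introns. In induced cells the correlation was 0.0405 over 42 introns, and over all introns it was 0.372 and 0.383, as a description of introns that share genes and reads. The hnRNP introns of up to 100 nt had a median coSE of 0.656 in uninduced and 0.385 in induced cells (8 introns each, not all the same ones). Those of more than 100 and up to 500 nt had 0.759 (23 introns) and 0.840 (17 introns). Those of more than 500 and up to 1000 nt had 0.717 (10 introns) and 0.500 (11 introns). Those of more than 1000 nt had 0.944 (10 introns) and 0.721 (6 introns). In each class partly different introns reached 10 reads in the 2 pools. Above 1000 nt only Hnrnpa2b1 intron 1 (0.872 and 0.888), Hnrnpf intron 2 (0.944 and 1) and Hnrnpk intron 6 (0.786 and 0.553) did in both. By reads over all introns of the class, the shortest class had 0.644 and 0.547, and the longest 0.827 and 0.741. By reads in uninduced cells the middle classes stood in the other order, 0.756 up to 500 nt and 0.785 up to 1000 nt. Over all introns the medians of the 4 classes, from short to long, were 0.818, 0.846, 0.906 and 0.977 in uninduced cells and 0.810, 0.866, 0.919 and 1 in induced cells.

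The 12 hnRNP introns that lie inside an exon of another annotated transcript had a median coSE of 0.607 in uninduced (7 introns) and 0.250 in induced cells (9 introns), beside 0.766 and 0.769 over all such introns. Different introns reached 10 reads in each pool, and by reads over all 12 the values were 0.572 and 0.614, in the opposite order. The other hnRNP introns had 0.819 (44 introns) and 0.667 (33 introns), beside 0.944 and 0.962 over all introns of that kind.

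A further 18 hnRNP-family genes, a list drawn up with the 10, had 147 introns in the table and served for comparison. Their median coSE was 0.826 in uninduced cells (38 introns) and 0.885 in induced cells (18 introns). In them coSE was below 0.5 in 7 of 38 introns (18.4%) and 2 of 18 (11.1%). Intermediates were 4 of 159 reads in uninduced cells (2.52%, interval 0.983 to 6.29) and 3 of 93 in induced cells (3.23%, interval 1.10 to 9.06), with point values below those of all introns. At least 1 intermediate was found in 3 of 13 of their introns (23.1%) and 3 of 9 (33.3%). None of their 17 introns deep enough in both pools changed by Fisher's exact test, and none had an unadjusted p under 0.05.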

How the data were processed

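Long-read nascent RNA was made by the submitters from chromatin of 4 uninduced and 4 induced samples; 12 other samples of the series were not used here. Per the submitters' processing notes, minimap2, SAMtools, bedtools and cutadapt were used and reads were placed on mm10; which tool served which step, and how runs were combined, is not given in the sources used here. The authors' deposited tables hold read counts of spliced and unspliced reads and of intermediates, coSE and NIC as fractions, intron GC content as a percent, and splice-site scores, with 1 pooled line per intron and condition. The coSE and NIC tables count spliced reads separately. Introns were matched to GENCODE M21 by coordinates. Fisher's exact test (scipy 1.17.1, tested on simulated data) was run on all introns with at least 10 reads in both pools, with Benjamini-Hochberg adjustment at 0.05. Introns are named that passed a test, had coSE under 0.5, were deepest in their gene, had the 3 largest rises or falls, had at least 3 intermediates with NIC of 0.1 or more, or had extreme site scores; others beside them, such as neighbours and introns of 5 to 9 reads, were chosen after their values were seen. Members and lists were chosen with earlier results of these data known. The alternatives were other coverage minimums, a chi-square test, introns in every transcript, weighting by reads, intermediates over all reads of the intron and mean NIC, and, chosen after seeing the data, values without Hnrnph1 and without Hnrnpk intron 6. Splice-site sequences are those deposited.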

Additional observations from a re-analysis of the deposited data

How the results depend on the processing

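The hnRNP introns with changed coSE numbered 1 with a minimum of 20 reads (Hnrnpk intron 10, adjusted p = 0.0340 by Fisher's exact test), or 4.76% of 21 against 5.11% of 1330 introns in all, and 0 under the other coverage minimums, the chi-square test and the restriction to introns in every annotated transcript. Over all introns the count of 71 was 99 by the chi-square test, and became 36 with no coverage minimum and 31 with introns in every annotated transcript. The induced hnRNP median coSE of 0.581 was 0.846 with a minimum of 20 reads, 0.846 over introns in every annotated transcript, and 0.843 without Hnrnph1, an alternative chosen after seeing the data that also left 3 of 45 uninduced and 8 of 32 induced introns below 0.5. The uninduced share of intermediates was 4.79% over all reads of the introns and 3.39% without Hnrnpk intron 6, also chosen after seeing the data. The induced share was 6.33% over all reads, 16.3% as the mean NIC over introns and 5.69% without that intron. The cause of these shifts was not tested beyond the introns left out. The other 21 summary values stayed within 1.5 times or within their interval, and 128 of 129 adjusted p-values of single introns kept their side of the threshold (these settings leave an intron's own reads, and so its direction, as they were). No paired analysis was possible because the deposited values merge the replicates of a condition, and leaving out single replicates was not run for that reason. Depth limits the genes with few reads: 0 spliced of 11 reads has a Wilson interval of 0 to 0.259.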
